A study of Mus musculus with 36 samples.

Results

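The genes described here are the 100 late genes of C2C12 myotubes. They are protein-coding genes that stood near their resting level just after electrical stimulation, on the scale of the rule below, and were highest relative to Rest during the recovery that followed. They were chosen from the Control libraries in CPM (counts scaled to a common library size), among the 12581 protein-coding genes that reached at least 1 CPM in at least 12 of the 36 libraries. With 0.5 added to the group means, 6999 of these genes lay within 0.3 of 0 in log2(EPS 0h/Rest), and the 100 with the highest log2(EPS 3h/Rest) among them were kept. Hence the rise of these genes at EPS 3h and their flat level at EPS 0h in Control myotubes are the choice itself, and are given below only as a description.

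C2C12 is a mouse myoblast line whose cells fuse into multinucleate myotubes when serum is lowered, and all 6 groups were such myotubes on day 4 of differentiation, transfected with an antisense locked nucleic acid (LNA) that was either a negative control (Control) or directed at the long non-coding RNA Tug1 (Tug1-KD, below Tug1 KD). Myotubes were unstimulated (Rest), harvested straight after 3 h of electrical pulse stimulation (EPS 0h), or left to recover for 3 h (EPS 3h). Per the study's methods, Rest plates held unconnected electrodes for as long as the stimulation lasted. Each LNA had a single Rest group, and none is given for the time of EPS 3h. In comparisons of EPS 3h with Rest or EPS 0h, recovery from stimulation and the added time in culture therefore cannot be told apart. Each of the 6 groups held 6 libraries, which the study describes as triplicate wells from each of a pair of independent experiments. The independent experiments are thus fewer than the libraries, and the p-values measure a spread that is partly between wells of the same experiment. The cells are a single established line without nerve or blood supply, and EPS is an exercise-like stimulus applied to cells in a dish.

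In contracting muscle a wave of immediate early and stress genes is transcribed first, and later waves include regulators of metabolism, growth factors, matrix genes and ribosome biogenesis factors. AP-1 factors such as Jun, hypoxia-inducible factors such as HIF-2α and polycomb cofactors are regulators of gene expression, and their part in the results below was not tested. In bulk samples fewer cells of a type and less RNA per cell cannot be told apart.

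The libraries held 17005079 to 24181167 counts on genes (median 19439667.5), so that 3 counts correspond to about 0.154 CPM at the median depth. Tug1 itself was 48.3 ± 6.77 CPM at Rest in Control and 27.2 ± 3.68 CPM in Tug1 KD myotubes (SD, n = 6), and 81.1 ± 19.5 and 56.8 ± 16.4 CPM at EPS 3h, where the libraries of both groups overlapped. All 12 myotube markers passed the filter, with a summed level of 16414 to 22439 CPM across the libraries. Markers of other cell types were low but moved with stimulation. The 4 endothelial markers summed to 0.804 to 2.18 CPM at Rest and 9.07 to 12.4 CPM at EPS 3h in Tug1 KD, the 3 epithelial markers to 4.73 to 10.5 and 17.1 to 35.6 CPM, and the 3 adipocyte markers to 0 to 0.312 and 1.63 to 2.62 CPM. The 4 leukocyte markers summed to 0.589 to 0.98 CPM at Rest and 0.917 to 2.62 CPM at EPS 3h, the 3 neuronal markers to 0 to 0.223 and 0.164 to 0.688 CPM, and the 2 myoblast markers to 24.1 to 32.0 and 20.01 to 34.6 CPM. At EPS 0h the myoblast markers were higher, at 38.8 to 54.0 CPM in Tug1 KD. In Control they summed to 29.8 to 34.0 CPM at Rest and 49.3 to 62.1 CPM at EPS 0h. The part of such marker changes in the results below was not tested.

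At the edge of the ranking, Serpinb7 (0.83) and Hoxa5 (0.82) were the last genes kept and Nmd3 (0.81) and Greb1 (0.81) the first left out, in log2(EPS 3h/Rest) of the Control means. At the edge of the window, Myh11 (0.29) and Zfp330 (0.30) lay just inside and Tmed7 (0.30) and Spon1 (0.31) just outside in log2(EPS 0h/Rest). Late genes chosen on replicates 1 to 3 alone had a median log2(EPS 3h/Rest) of 1.10 in replicates 4 to 6 of Control, where 100 of them were above 0, and those chosen on replicates 4 to 6 had a median of 1.12 in replicates 1 to 3, where 99 were. The medians of all protein-coding genes there were -0.17 and -0.24. The flat level at EPS 0h carried over less, since 49 and 64 of these genes remained inside the window of 0.3 in the replicates that had not chosen them. These values are a description and no independent support. All 36 libraries entered the filter, and 36 of the 100 late genes reached 12 libraries only with those of EPS 3h. The replicates left out of a choice may also be wells of the same experiment as those in it.

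All levels below are CPM scaled by TMM, a normalization that allows for differences in library composition, and a set of 3 values gives the lowest, median and highest of the 6 libraries of a group. On that scale 83 of the 100 genes had a log2FC above 0 at EPS 0h in Control, 44 had one above 0.3 and the median was 0.27. The rule, in contrast, used library size and a pseudocount. For genes with few counts, the pseudocount draws the value of the rule towards 0. Among the first ranks, the fitted EPS 0h log2FC in Control was 3.67 ± 1.18 for Tspear, 1.41 ± 0.85 for Hfm1 and 1.31 ± 0.54 for Atp7b (± SE). It was -0.06 for Slco2a1 and -0.43 for Ppp2r2c. A rise in recovery alone therefore describes these genes on the scale of the rule, and less strictly on that of TMM.

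**Figure D1:**
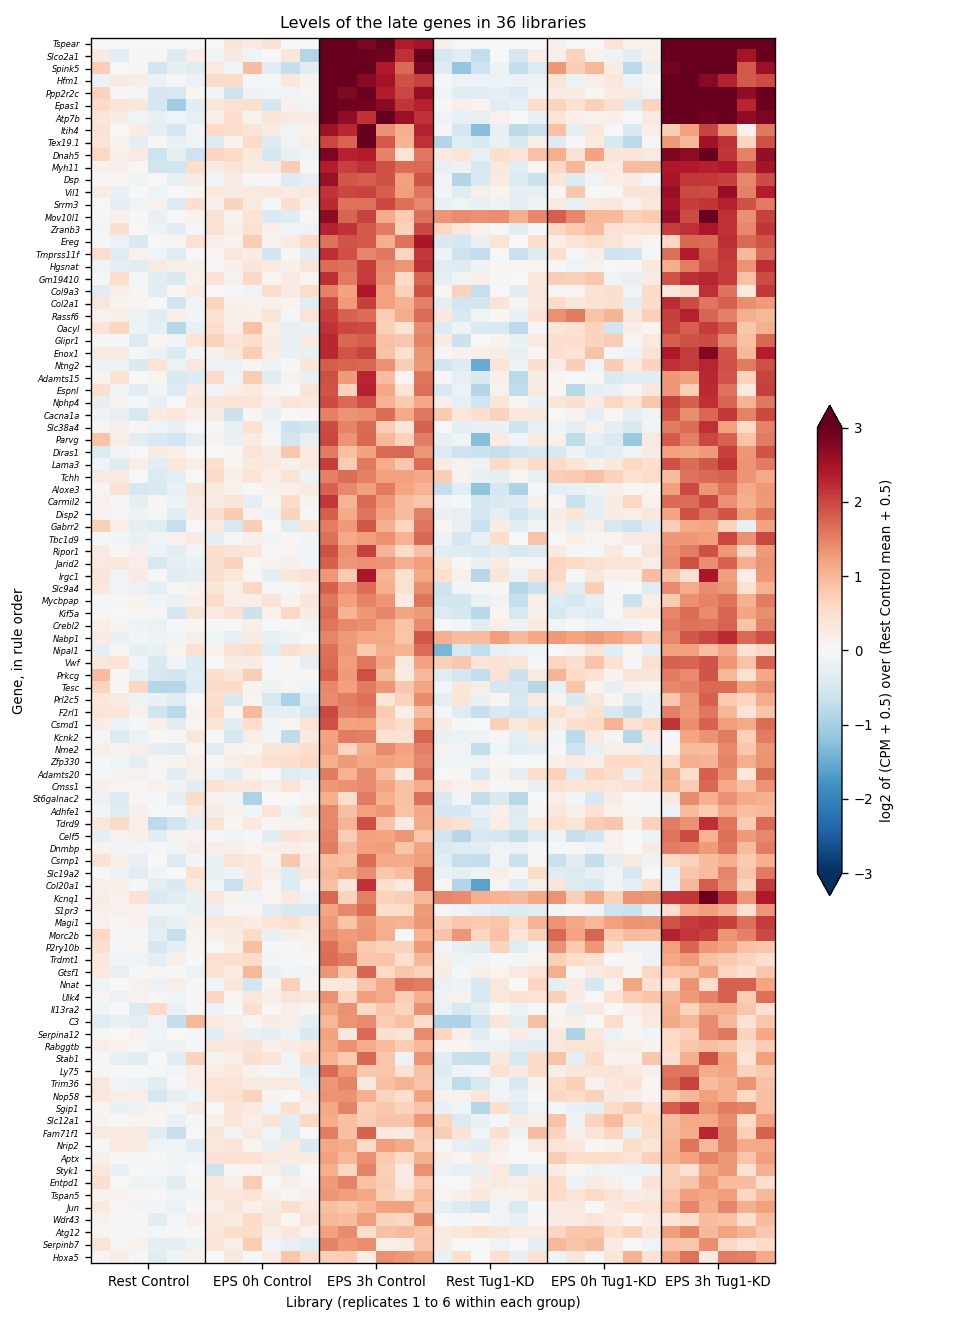
Each row is a late gene in the order of the rule, with 1 gene left out, and each column 1 of the 36 libraries, in blocks of 6 replicates per group. Colour is the log2 of CPM plus 0.5 over the Rest Control mean plus 0.5, limited to between -3 and 3, and most of the red lies in the EPS 3h blocks of both LNAs. Some genes, such as Mov10l1 and Kcnq1 (log2FC 2.38 and 1.88), were already above Control in Tug1 KD at Rest.

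Tug1 KD libraries took no part in the ranking, so the response of the late genes in them was tested with edgeR over all 13995 genes that passed the filter (FDR under 0.05). At EPS 3h the 100 late genes were all higher than at Rest, with log2FC from 0.75 to 8.81 and a median of 1.68, beside 26.2% of all genes that rose, 25.9% that fell and a median of -0.04 over all genes. The study's threshold of FDR under 0.01 and log2FC above 1 was passed by 90 of them, beside 11% of all genes. However, the filter that precedes the rule counts Tug1 KD libraries as well, and 26 of the 100 genes reached 12 libraries only through those of EPS 3h Tug1 KD, so their rise and the FDR printed for them at EPS 3h are a description and no support from independent libraries. They were Tspear, Slco2a1, Hfm1, Ppp2r2c, Atp7b, Tex19.1, Dnah5, Dsp, Vil1, Srrm3, Tmprss11f, Gm19410, Col9a3, Col2a1, Rassf6, Slc38a4, Tchh, Mycbpap, Prl2c5, Csmd1, Gtsf1, C3, Serpina12, Sgip1, Slc12a1 and Entpd1. Of the 74 genes that passed without that group, 74 rose, 65 of them at the study's threshold, with a median of 1.53. The largest fitted values, of Tspear and Hfm1, rest on 1 count each at Rest and are also given as count ratios with those genes. In 81 of the 100 genes every EPS 3h library lay above every Rest library, beside 15.9% of all genes. That count includes genes among the 26 and is likewise a description.

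Replicates 1 to 3 and 4 to 6 were also fitted by themselves, as groupings by number only, since the sources used here do not tie replicate numbers to experiments. The median log2FC was 1.88 in replicates 1 to 3, where 99 genes rose beside 27.3% of all genes, and 1.501 in replicates 4 to 6, where 95 rose beside 22% of all genes. The mean of replicates 1 to 3 at EPS 3h was above that of replicates 4 to 6 in 72 genes in Tug1 KD and in 85 genes in Control myotubes. At Rest and EPS 0h it was above in 36 and 58 genes in Tug1 KD and in 72 and 71 in Control. Replicate 5 was the lowest of the 6 EPS 3h libraries for 62 genes in Tug1 KD and for 65 in Control. It was lowest for 25 and 32 genes at Rest and EPS 0h in Tug1 KD, and for 40 and 23 in Control. The shares over all genes were not taken, so these counts are not particular to the late genes. Without replicate 5, 100 genes rose at EPS 3h against Rest in Tug1 KD, beside 24.3% of all genes, and 91 passed the study's threshold.

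Between the end of stimulation and EPS 3h, 92 late genes rose in Tug1 KD myotubes, 0 fell and the median log2FC was 1.34, beside 8.59% and 7.13% of all genes that rose and fell. With the replicate number as a block, which these libraries also share, 96 rose, with Morc2b, C3, Stab1 and Slc12a1 added, beside 11.8% of all genes. Without replicate 5 the number was 92, beside 7.99%, and of the 74 genes that passed the filter without EPS 3h Tug1 KD, 69 rose. Of the 8 genes that were not called here, 7 were Morc2b, P2ry10b, Gtsf1, C3, Stab1, Slc12a1 and Serpinb7 (named after their values were seen), with log2FC between 0.26 for Serpinb7 and 1.15 for C3. In 65 genes every EPS 3h library was above every EPS 0h library, beside 4.5% of all genes. That count includes genes that passed the filter only through EPS 3h Tug1 KD, and is a description.

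**Figure D2:**
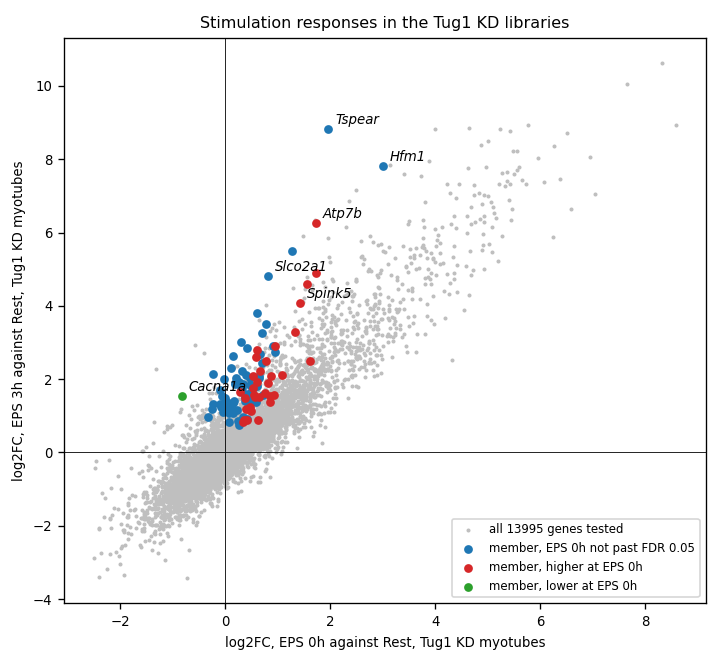
The x axis is the log2FC of EPS 0h against Rest and the y axis that of EPS 3h against Rest, both in Tug1 KD myotubes, with all 13995 genes tested in grey and the 100 late genes in colour by their EPS 0h call. The late genes lie between 0.75 and 8.81 on the y axis and between -0.83 and 3.00 on the x axis.

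At EPS 0h in Tug1 KD, 34 of the 100 genes were higher than at Rest, 1 was lower and 65 did not pass, with a median log2FC of 0.44, beside 24.4% of all genes that rose, 21.2% that fell and a median of -0.03. Same-numbered Rest and EPS 0h libraries varied together, and with the replicate number as a block 44 late genes rose, beside 27.9% of all genes. The block added 11 genes (Hfm1, Ppp2r2c, Dsp, Oacyl, Glipr1, Slc9a4, F2rl1, Morc2b, Stab1, Tspan5 and Wdr43) and left out Celf5 (FDR = 0.0578). Of the 100 genes 31 lay within 0.3 of 0, and 6 passed the study's threshold, beside 8.15% of all genes, namely Srrm3, Rassf6, Vil1, Spink5, Myh11 and Tchh (named after their values were seen). Of the 74 genes that passed the filter without EPS 3h Tug1 KD, 28 rose, 1 fell and 45 did not pass, and 2 (Spink5 and Myh11) reached that threshold. Among all 6 genes past that threshold, log2FC at EPS 0h ran from 1.08 for Tchh to 1.73 for Srrm3, against 2.12 and 4.90 at EPS 3h. Replicates 1 to 3, fitted by themselves, gave 44 genes that rose at EPS 0h, beside 27.7% of all genes in that fit, and replicates 4 to 6 gave 11, beside 15.9%. Over the other replicates, the number was 21 without replicate 1 (20.7% of all genes), 20 without replicate 2 (20.8%) and 21 without replicate 3 (21.4%), and 22 on library size alone (20.3%), which moved the median of all genes by -0.09. In 6 genes (Ripor1, Zfp330, Cmss1, Rabggtb, Aptx and Jun) every EPS 0h library was above every Rest library, a share below the 13% of all genes.

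Among the 7 transcription and chromatin regulators, log2FC at EPS 3h in Tug1 KD ran from 1.16 to 3.81. All 7 also rose between EPS 0h and EPS 3h, beside 8.59% of all genes. Epas1, which encodes the hypoxia-inducible factor HIF-2α, was 0.469, 0.763 and 1.25 CPM at Rest, 0.431, 1.31 and 1.51 CPM at EPS 0h and 5.45, 10.8 and 16.001 CPM at EPS 3h in Tug1 KD. The 6 EPS 3h libraries stood clear of all Rest and EPS 0h libraries, and Epas1 rose by 3.81 ± 0.36 (log2FC ± SE, FDR = 3.64e-11) against Rest. In Control the same gene read 0.0938, 0.760 and 1.30 CPM at Rest and 4.89, 8.02 and 13.3 CPM at EPS 3h.

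Jun, a subunit of the AP-1 transcription factor that is usually counted among immediate early genes, was the most abundant late gene per length, at 126 CPM per kb of its canonical transcript at Rest and 358 CPM per kb at EPS 3h in Tug1 KD. Its level was 425, 476 and 596 CPM at Rest, 545, 595 and 706 CPM at EPS 0h and 862, 945 and 1144 CPM at EPS 3h in Control. In Tug1 KD it was 329, 394 and 471 CPM at Rest, 491, 598 and 651 CPM at EPS 0h and 949, 1092 and 1346 CPM at EPS 3h, and the 3 groups of libraries did not overlap. Jun had thus risen at EPS 0h in Tug1 KD (0.57 ± 0.10, FDR = 3.15e-05) and rose further to EPS 3h, where log2FC against Rest was 1.51 ± 0.11 (FDR = 2.90e-14). Junos, the antisense gene that overlaps Jun, rose by 1.53 at EPS 3h, and since the strand setting of the counting is not given in the sources used here, the reads of such pairs may not be told apart. Taking 1 overlapping gene for each late gene, that gene rose at EPS 3h for 9 late genes, fell for 1 and did not pass for 13. The 9 pairs were Jun and Junos, Kcnq1 and Kcnq1ot1, Glipr1 and Krr1 (1.61 for the gene on the other strand), Ereg and Gm19610 (1.29), St6galnac2 and Snhg16 (1.22), Cmss1 and Filip1l (0.93), Nrip2 and Itfg2 (0.81), Atg12 and Ap3s1 (0.61), and Vil1 and Usp37 (0.58), and the late genes of these pairs are uncertain for that reason.

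Jarid2, an accessory subunit of the polycomb complex PRC2, was 12.4, 14.9 and 18.3 CPM at Rest and 31.2, 39.3 and 57.1 CPM at EPS 3h in Tug1 KD, without overlap (log2FC 1.48 ± 0.15, FDR = 3.13e-10). Jarid2 had also risen at EPS 0h (0.38 ± 0.15, FDR = 0.0386). The nuclear protein gene Csrnp1 had 20.6, 24.6 and 36.9 CPM at Rest, 20.9, 27.8 and 41.7 CPM at EPS 0h and 51.7, 63.4 and 74.02 CPM at EPS 3h. Its Rest and EPS 0h libraries overlapped while the EPS 3h libraries lay above both. Crebl2, a bZIP protein related to CREB, was likewise flat at EPS 0h (-0.07 ± 0.12, FDR = 0.664) and higher at EPS 3h (1.54 ± 0.12, FDR = 6.95e-13). The homeobox gene Hoxa5, last in the ranking, had a log2FC of 1.16 ± 0.22 (FDR = 4.88e-05) with overlapping libraries.

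Transporters and channels numbered 11, with log2FC at EPS 3h from 0.96 to 6.25. Slco2a1, the prostaglandin transporter, was 0.107, 0.265 and 0.668 CPM at Rest, 0.301, 0.618 and 1.15 CPM at EPS 0h and 5.15, 10.4 and 12.3 CPM at EPS 3h in Tug1 KD. Its lowest EPS 3h library was thus above its highest EPS 0h library, and log2FC against Rest was 4.81 ± 0.35 (FDR = 8.26e-14), whereas EPS 0h did not pass (0.82 ± 0.41, FDR = 0.102). Slco2a1 libraries of Control spanned 0.0508, 0.485 and 0.784 CPM at EPS 0h and 4.15, 7.36 and 12.4 CPM at EPS 3h.

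Atp7b, the copper-transporting ATPase that is mutated in Wilson disease, was near the counting limit before recovery, at 0, 0.0258 and 0.141 CPM at Rest and 0.0861, 0.164 and 0.290 CPM at EPS 0h, and reached 3.21, 4.23 and 4.97 CPM at EPS 3h in Tug1 KD. The log2FC of Atp7b was 6.25 ± 0.43 at EPS 3h (FDR = 2.01e-14) and 1.73 ± 0.63 at EPS 0h (FDR = 0.0243). Cacna1a, the pore subunit of the P/Q-type calcium channel, was the only late gene to fall at EPS 0h in Tug1 KD, from 1.34, 1.46 and 2.06 CPM at Rest to 0.703, 0.916 and 1.09 CPM, before it reached 3.40, 4.66 and 5.89 CPM at EPS 3h. All 6 of its EPS 0h libraries were below all Rest libraries, log2FC was -0.83 ± 0.22 at EPS 0h (FDR = 0.00204) and 2.35 ± 0.21 from EPS 0h to EPS 3h (FDR = 2.64e-10). In Control the Cacna1a libraries overlapped between Rest (0.552, 0.990 and 1.36 CPM) and EPS 0h (0.439, 1.0046 and 1.30 CPM). Nipal1, a magnesium transporter, rose by 0.54 ± 0.23 at EPS 0h (FDR = 0.0468) and by 1.57 ± 0.22 at EPS 3h (FDR = 2.43e-07).

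**Figure D3:**
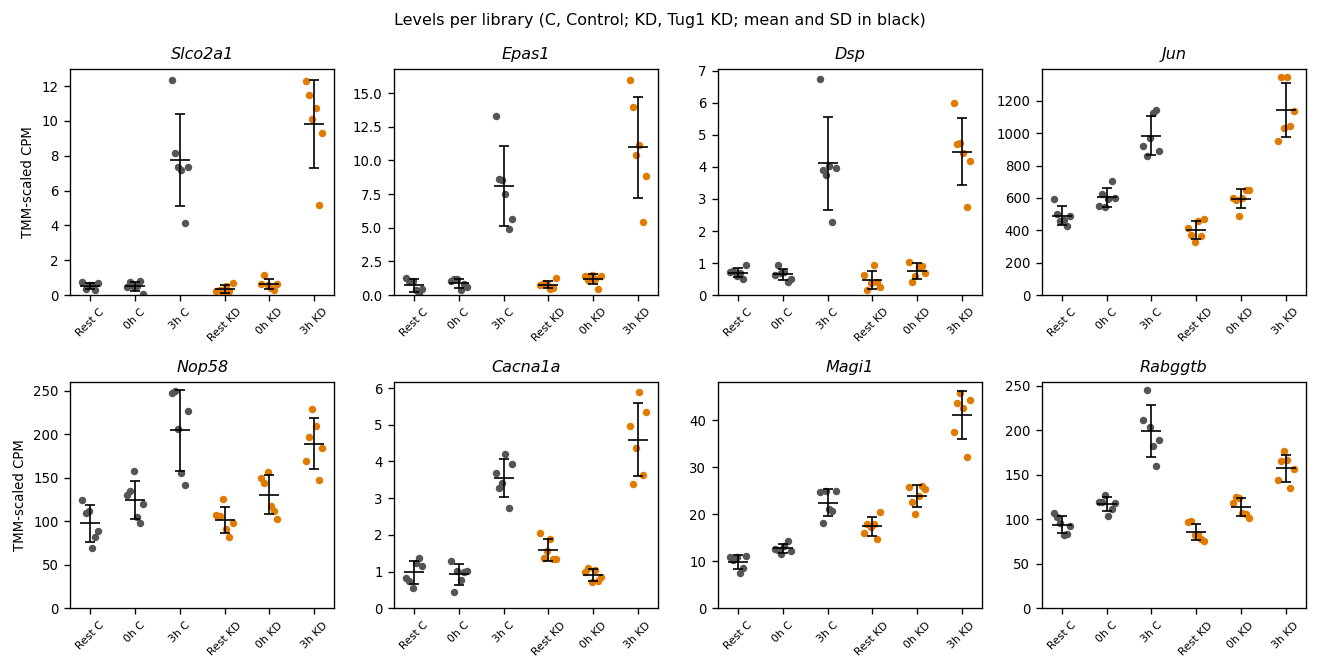
TMM-scaled CPM of 8 late genes in each library (points), with the mean and SD of the 6 libraries of a group in black, Control in grey and Tug1 KD in orange. Slco2a1, Epas1 and Dsp are low at Rest and EPS 0h, Jun steps up at both times, Cacna1a dips at EPS 0h in Tug1 KD, and Magi1 is higher in Tug1 KD throughout.

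Of the 10 receptors, ligands and other surface or plasma proteins, which had log2FC between 1.09 and 1.77 at EPS 3h, 1 rose at EPS 0h in Tug1 KD (P2ry10b), and 3 with the replicate block, which added F2rl1 and Stab1. The shares over all genes were 24.4%, and 27.9% with the block. Ereg encodes epiregulin, a ligand of the EGF receptor, and was 11.1, 15.3 and 23.8 CPM at Rest, 17.2, 20.1 and 24.05 CPM at EPS 0h and 25.6, 54.8 and 77.9 CPM at EPS 3h in Tug1 KD. The highest Rest library lay just below the lowest EPS 3h library (log2FC 1.73 ± 0.21, FDR = 1.49e-08), and the EPS 0h change did not pass (FDR = 0.253). The level of Ereg is uncertain by its overlap with Gm19610. S1pr3, a sphingosine 1-phosphate receptor, rose by 1.28 ± 0.18 (FDR = 1.74e-07) and had a log2FC of -0.02 at EPS 0h. Il13ra2 and the protease-activated receptor F2rl1 rose by 1.55 and 1.77 (FDR = 1.00e-06 and 1.34e-05).

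Matrix proteins, proteases and their inhibitors made up 12 of the late genes, with log2FC from 0.88 to 4.08. Spink5, a serine protease inhibitor known from the skin barrier, was 0.407, 0.914 and 1.31 CPM at Rest, 0.646, 2.37 and 4.47 CPM at EPS 0h and 6.68, 15.2 and 22.3 CPM at EPS 3h in Tug1 KD. The EPS 3h libraries were all above those at EPS 0h, and Spink5 had also risen at EPS 0h (1.43 ± 0.43, FDR = 0.00759, against 4.08 ± 0.42 and 3.54e-10 at EPS 3h). Itih4, a heavy chain of the inter-alpha-trypsin inhibitor family, was 0.857, 1.69 and 2.68 CPM at Rest and 3.11, 7.48 and 12.96 CPM at EPS 3h in Tug1 KD. In Control it was 1.78, 2.70 and 4.02 CPM at Rest and 6.35, 15.5 and 25.8 CPM at EPS 3h. Its log2FC in Tug1 KD was 0.86 ± 0.33 at EPS 0h (FDR = 0.0309) and 2.09 ± 0.32 at EPS 3h (FDR = 1.24e-06). The 2 EPS 3h groups overlapped.

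The cartilage collagen genes Col2a1 and Col9a3 rose by 2.91 ± 0.39 and 1.88 ± 0.41 (FDR = 8.66e-08 and 2.44e-04), the latter with overlapping libraries. The metalloproteases Adamts15 and Adamts20 rose by 2.00 and 1.495 (FDR = 1.16e-06 and 3.55e-05). Lama3, a laminin alpha chain, went from 0.482, 0.863 and 1.17 CPM at Rest to 2.34, 3.30 and 4.51 CPM at EPS 3h without overlap (log2FC 1.91 ± 0.25, FDR = 4.06e-08). Ntng2, a membrane-anchored netrin, rose at EPS 0h (0.78, FDR = 0.0299) and at EPS 3h (2.51, FDR = 3.65e-09).

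The 13 genes of the cytoskeleton, motors, cilia and junctions had a median log2FC of 2.11 at EPS 3h, and 7 of them had risen at EPS 0h (8 with the replicate block), beside 24.4% of all genes. With the block the share over all genes was 27.9%. The role groups were formed after the values were seen, and Dsp, Dnah5, Vil1 and Tchh of this group passed the filter only through EPS 3h Tug1 KD. Dsp, which encodes the desmosomal plaque protein desmoplakin, was 0.152, 0.390 and 0.938 CPM at Rest, 0.401, 0.779 and 1.04 CPM at EPS 0h and 2.75, 4.58 and 6.01 CPM at EPS 3h. These EPS 3h libraries lay above all earlier ones, with a log2FC of 3.26 ± 0.28 (FDR = 5.63e-12). Dnah5, an outer-arm dynein heavy chain of motile cilia, was 0.214, 0.598 and 1.02 CPM at Rest and 1.83, 4.75 and 7.22 CPM at EPS 3h (log2FC 2.86 ± 0.46, FDR = 2.73e-06), and did not pass at EPS 0h (FDR = 0.534). Myh11, the smooth muscle myosin heavy chain, rose by 1.32 ± 0.29 at EPS 0h and 3.29 ± 0.28 at EPS 3h (FDR = 3.68e-04 and 2.87e-12).

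Dnmbp, a guanine nucleotide exchange factor for Cdc42, was 30.3, 34.5 and 40.02 CPM at Rest, 37.7, 40.8 and 49.4 CPM at EPS 0h and 80.2, 118 and 125 CPM at EPS 3h in Tug1 KD. The log2FC was 0.28 ± 0.10 at EPS 0h (FDR = 0.0254) and 1.66 ± 0.11 at EPS 3h (FDR = 2.47e-15), with no overlap of the EPS 3h libraries with the others. Ripor1, one of the more abundant late genes, rose by 0.53 ± 0.18 at EPS 0h and 1.77 ± 0.19 at EPS 3h (FDR = 0.0187 and 6.60e-10).

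Germline small-RNA, meiosis and DNA repair factors, genes that mostly have their known roles in germ cells, numbered 8. Hfm1, a helicase of meiotic crossing over, had 1 count over the 6 Rest libraries of Tug1 KD and 340 at EPS 3h, where it read 1.53, 2.75 and 6.02 CPM, 394-fold higher with a 95% exact interval of 70.3 to 15610 for counting error only. At EPS 0h Hfm1 stood at 0, 0.118 and 0.232 CPM, close to the counting limit. Tex19.1, which restrains retrotransposons in germ cells and placenta, was 0.103, 0.339 and 0.758 CPM at Rest, 0.129, 0.489 and 0.853 CPM at EPS 0h and 1.22, 2.93 and 5.91 CPM at EPS 3h in Tug1 KD (log2FC at EPS 3h 3.01 ± 0.43, FDR = 2.77e-07). The EPS 0h libraries of Tex19.1 overlapped those at Rest and the EPS 3h libraries overlapped neither.

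The Piwi-pathway helicase Mov10l1 was 1.17, 1.52 and 1.60 CPM at Rest and 1.53, 2.90 and 5.91 CPM at EPS 3h in Tug1 KD, with overlap (log2FC 1.18 ± 0.32, FDR = 0.00244), and the Piwi-pathway genes Tdrd9 and Gtsf1 rose by 1.498 and 0.91 (FDR = 5.77e-06 and 0.00958). Nabp1, a single-strand DNA-binding subunit of the SOSS complex, was 34.2, 36.4 and 43.2 CPM at Rest, 29.5, 40.7 and 43.8 CPM at EPS 0h and 48.5, 67.6 and 85.4 CPM at EPS 3h. The EPS 3h libraries of Nabp1 were above all others of Tug1 KD (log2FC 0.83 ± 0.13, FDR = 2.89e-06).

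RNA processing and ribosome biogenesis factors were 6, and 4 of them had risen by EPS 0h in Tug1 KD, beside 24.4% of all genes. With the replicate block it was also 4, beside 27.9%, with Wdr43 added and Celf5 lost. The group was formed after the values were seen, and Srrm3 passed the filter only through EPS 3h Tug1 KD. Nop58, a core protein of box C/D small nucleolar RNPs, was 82.3, 102 and 126 CPM at Rest, 103, 131 and 157 CPM at EPS 0h and 147, 190.1 and 229 CPM at EPS 3h. Its EPS 3h libraries were above those at Rest but overlapped those at EPS 0h, with log2FC against Rest of 0.36 ± 0.15 (FDR = 0.0498) and 0.90 ± 0.15 (FDR = 6.01e-06) at the 2 times. Wdr43, of the small subunit processome, had the smallest log2FC of the 100 genes at EPS 3h, from 66.4, 75.7 and 80.8 CPM to 99.1, 127 and 149.9 CPM (0.75 ± 0.12, FDR = 1.25e-06), still without overlap. Cmss1, also linked to the small ribosomal subunit, rose by 0.39 ± 0.13 and 1.19 ± 0.13 (FDR = 0.0160 and 2.40e-09), with Filip1l rising on the other strand.

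Srrm3, a splicing regulator of neuronal microexons, was at 0.0450, 0.0714 and 0.102 CPM at Rest, 0.0573, 0.296 and 0.338 CPM at EPS 0h and 1.45, 2.34 and 3.17 CPM at EPS 3h in Tug1 KD. Only the EPS 3h libraries exceeded 1 CPM, and log2FC was 4.90 ± 0.41 (FDR = 2.05e-12).

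Kinases, phosphatases and GTPase signalling genes were 9, with log2FC from 0.88 to 5.51 at EPS 3h. Ppp2r2c, a regulatory subunit of protein phosphatase 2A, was 0.0901, 0.124 and 0.223 CPM at Rest, 0.211, 0.404 and 0.431 CPM at EPS 0h and 4.33, 6.84 and 9.34 CPM at EPS 3h in Tug1 KD. That is a separation of the EPS 3h libraries from both other groups (log2FC 5.51 ± 0.42, FDR = 2.56e-13), while EPS 0h did not pass (FDR = 0.0513, and 0.0140 with the replicate block). Rabggtb, the beta subunit of the enzyme that prenylates Rab proteins, was 75.9, 82.9 and 97.7 CPM at Rest, 102, 113 and 125 CPM at EPS 0h and 135, 161 and 176 CPM at EPS 3h, a stepwise order with no overlap. Its log2FC was 0.41 ± 0.09 at EPS 0h and 0.88 ± 0.09 at EPS 3h (FDR = 4.04e-04 and 5.25e-10).

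Metabolic and lysosomal enzymes and autophagy genes were 9. Hgsnat, the lysosomal acetyltransferase of heparan sulfate breakdown, was 30.8, 38.97 and 42.5 CPM at Rest, 37.1, 41.99 and 50.3 CPM at EPS 0h and 86.2, 135 and 188 CPM at EPS 3h in Tug1 KD. The EPS 3h libraries were clear of all others and log2FC was 1.87 ± 0.16 (FDR = 3.19e-12), whereas EPS 0h did not pass (FDR = 0.329). Atg12, a ubiquitin-like protein of autophagosome formation, was 73.9, 78.9 and 87.01 CPM at Rest, 80.99, 101 and 114 CPM at EPS 0h and 111, 139 and 179.6 CPM at EPS 3h (log2FC 0.83 ± 0.11, FDR = 1.35e-07), with overlap between EPS 0h and EPS 3h. Atg12 had also risen at EPS 0h (0.33 ± 0.11, FDR = 0.0154). The oxidase gene Enox1 rose by 2.21 ± 0.26 (FDR = 8.25e-09).

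The remaining 15 genes were not placed in a role group. Tspear, first in the ranking and a secreted EAR-repeat protein linked to hearing and tooth development, had 0 counts in all 6 Rest Control libraries and 2.10, 3.37 and 5.91 CPM at EPS 3h, at least 154-fold higher than the level of 3 counts over the group (0.0232 CPM). In Tug1 KD it had 1 count at Rest and 688 at EPS 3h, 797-fold higher with a 95% exact interval of 143 to 31541 for counting error only. At EPS 0h Tspear was 0, 0.0426 and 0.156 CPM, at most 3 counts in any library. Zfp330, a zinc finger protein, was 81.05, 86.5 and 92.99 CPM at Rest, 99.4, 119 and 136 CPM at EPS 0h and 134, 189.6 and 253 CPM at EPS 3h, and rose at both times (0.45 ± 0.11 and 1.18 ± 0.12, FDR = 0.00159 and 8.31e-11). The tetraspanin Tspan5 rose by 0.85 ± 0.11 at EPS 3h (FDR = 5.37e-08) and Fam71f1 by 1.10 ± 0.27 (FDR = 7.19e-04). Nme2 and Prl2c5 have near copies elsewhere in the genome, and their counts are uncertain for that reason.

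Abundance varied widely among the late genes. In Tug1 KD, 42 had a mean under 1 CPM at Rest, 26 had at least 5 CPM at Rest and 52 at EPS 3h, and 14 had at least 50 CPM at EPS 3h. Per length, after Jun at EPS 3h in Tug1 KD came Rabggtb and Zfp330, with 111 and 110.3 CPM per kb of canonical transcript, and Hgsnat with 51.0, and 67 genes exceeded 1 CPM per kb.

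The comparison of Tug1 KD with Control is given only as a description, since the Control libraries chose the genes. The late genes had a median log2FC of 1.57 at EPS 3h against Rest in Control and 1.68 in Tug1 KD, and 64 of 100 had the larger value in Tug1 KD. Relative to Control, the median log2FC of Tug1 KD was -0.07 at Rest, 0.12 at EPS 0h and 0.13 at EPS 3h. At Rest 60 genes were lower and 40 higher in Tug1 KD, at EPS 3h 33 were lower and 67 higher, and at EPS 3h 87 differed by less than 0.5. The medians of all genes were -0.03 at Rest and -0.01 at EPS 3h.

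Few late genes stood apart between the LNAs, in shares near or below those of all genes. Magi1, a scaffold protein of tight junctions, was 7.53, 10.6 and 11.1 CPM in Control and 14.7, 17.6 and 20.5 CPM in Tug1 KD at Rest. At EPS 0h it was 11.6, 12.5 and 14.3 CPM in Control and 20.03, 24.6 and 26.1 CPM in Tug1 KD, and at EPS 3h 18.04, 22.9 and 24.98 CPM in Control and 32.3, 43.1 and 45.9 CPM in Tug1 KD. It was the only late gene whose 6 Tug1 KD libraries were all above those of Control at EPS 3h (2.68% of all genes), and its log2FC at EPS 3h against Rest was 1.18 in Control and 1.24 in Tug1 KD (FDR = 2.20e-12). At Rest, Mov10l1, Nabp1, Kcnq1 and Atg12 were, besides Magi1, higher in every Tug1 KD library (5 genes, beside 4.34% of all genes), and Diras1 and Celf5 were lower (2 genes, beside 3.73%). At EPS 3h, 0 late genes had all Tug1 KD libraries below those of Control, beside 1.94% of all genes.

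Kcnq1, a voltage-gated potassium channel, read 0.214, 0.446 and 0.803 CPM in Control and 1.40, 1.60 and 2.16 CPM in Tug1 KD at Rest, and 1.04, 1.26 and 2.71 CPM in Control and 1.94, 3.74 and 6.94 CPM in Tug1 KD at EPS 3h. The 2 groups were separate at Rest and overlapped at EPS 3h, with log2FC of 1.88 and 1.37 for Tug1 KD against Control. Kcnq1ot1, which is transcribed across Kcnq1 from the other strand, rose by 1.30 at EPS 3h in Tug1 KD, and its share in the Kcnq1 counts was not tested. Nabp1 was 15.4, 16.7 and 21.1 CPM at Rest and 31.96, 41.7 and 65.4 CPM at EPS 3h in Control, so the Rest libraries of Tug1 KD lay above those of Control and the EPS 3h libraries overlapped. Mov10l1 was 0.171, 0.271 and 0.368 CPM at Rest in Control, where its highest library was below the lowest of Tug1 KD. Itih4 and Rabggtb had a log2FC of -0.98 and -0.34 for Tug1 KD against Control at EPS 3h.

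**Figure D4:**
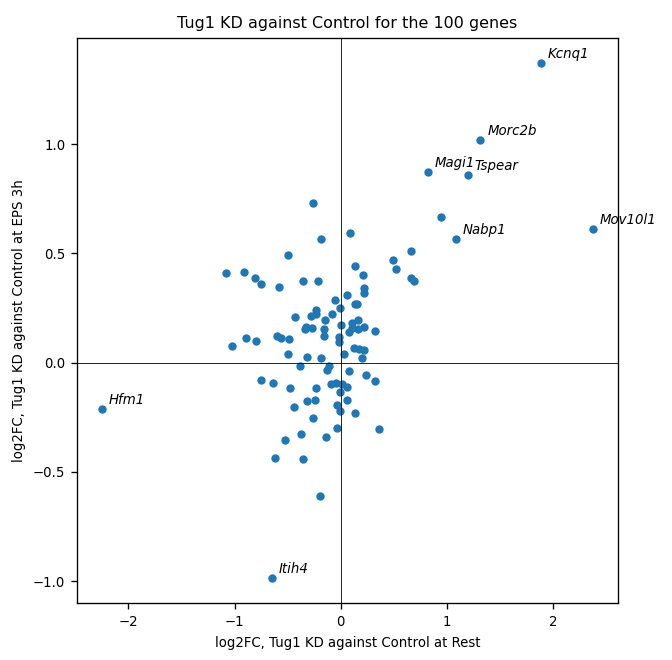
Each point is 1 of the 100 late genes, with the log2FC of Tug1 KD against Control at Rest on the x axis and at EPS 3h on the y axis. Most points lie within 0.5 of 0 on the y axis, and Kcnq1 (1.88 and 1.37), Morc2b (1.32 and 1.02) and Magi1 (0.82 and 0.87) are higher in Tug1 KD on both.

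Other genes of pathways that respond to stimulation gave a background for the late genes, from 8 lists, in Tug1 KD myotubes. Chaperones and co-chaperones held 0 late genes. Of 68 measured, 38 had risen and 3 fallen at EPS 0h, 44 and 5 at EPS 3h against Rest, and 21 and 1 between EPS 0h and EPS 3h. Chromatin remodelling and transcription machinery held 1 late gene, Jarid2, and of 82 genes 56 rose and 3 fell at EPS 0h, 61 and 3 at EPS 3h, and 21 and 2 between the 2 times, with medians of 0.52, 0.67 and 0.12. Ribosome biogenesis held 3 late genes. Of its 79 genes 22 rose and 5 fell at EPS 0h, 37 and 5 at EPS 3h, and 18 and 0 between the times, and without Nop58, Wdr43 and Cmss1 the last count was 15 of 76.

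The extracellular matrix and adhesion list held 6 late genes (Col9a3, Col2a1, Adamts15, Adamts20, Lama3 and Dsp). Of its 64 measured genes 14 rose and 2 fell between EPS 0h and EPS 3h, and without the late genes 8 of 58 rose, against 8.59% of all genes. At EPS 0h it was 14 that rose and 10 that fell, and at EPS 3h against Rest 24 and 15. The other 4 lists held 0 late genes. Of 78 splicing and 3′ end processing genes 31 rose and 6 fell at EPS 0h, and 12 and 2 between the times. Of 49 nuclear pore and transport genes 21 rose and 3 fell at EPS 0h, and 2 and 2 between the times. Of 40 NF-kB genes 14 rose and 11 fell at EPS 0h, and of 50 TGF-beta and BMP genes 17 and 11, while between the times 6 rose and 7 fell in each of these lists. At EPS 3h against Rest, 35 splicing genes rose and 7 fell, 22 and 7 nuclear pore genes, 14 and 14 NF-kB genes, and 18 and 16 TGF-beta and BMP genes. Over all genes 24.4% rose and 21.2% fell at EPS 0h, 26.2% and 25.9% at EPS 3h, and 8.59% and 7.13% between the times.

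The late genes were somewhat longer than other genes. Their median span was 36.1 kb, against 26.6 kb for the 12575 protein-coding genes tested that were matched to the annotation, with 12.5 against 9 exons and a canonical transcript of 4282.5 against 3516 bases. The middle 50% of spans ran from 19.9 to 87.9 kb among the late genes and from 12.2 to 60.3 kb among all, so the ranges overlapped largely. The promoters, taken as the 250 bases before the start of the canonical transcript in GRCm39, had a median GC content of 55.2% against 56.8% and 9 against 12 CpG dinucleotides.

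Matches to 9 short motifs were searched on both strands of these promoters. The GC box (GGGCGG) was found in 31% of late genes against 49% of all promoters, the TATA box (TATAAA) in 13% against 7.33%, and the AP-1 site (TGANTCA) in 9% against 4.71%. The CCAAT box (CCAAT) was found in 42% against 36.1%, the hypoxia response element (ACGTG) in 22% against 20.9%, the MyoD E-box (CAGCTG) in 14% against 11.4%, the ATF4 site (TGATGNAA) in 4% against 2.18%, the CRE (TGACGNCA or TGNCGTCA) in 4% against 3.86%, and the heat shock element in 1% against 0.366%. A match describes the letters and not the binding of a factor.

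**Figure D5:**
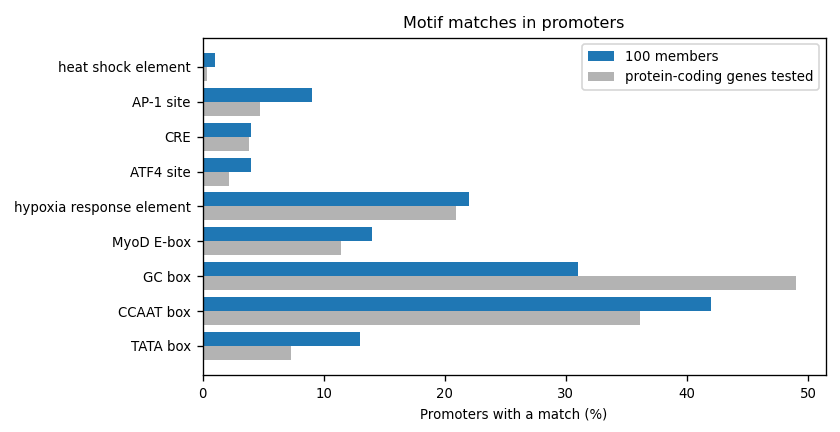
Bars give the percentage of promoters (250 bases before the start) with at least 1 match to each motif, in blue for the 100 late genes and in grey for the 12575 protein-coding genes tested. The bars differ most for the GC box (31% and 49%).

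The AP-1 site is shown in 4 promoters because Jun, an AP-1 subunit, is itself a late gene. They are those of Ereg (chr5:91221907-91222156, plus strand), Srrm3 (chr5:135846710-135846959, plus strand), Tex19.1 (chr11:121036719-121036968, plus strand) and Crebl2 (chr6:134806867-134807116, plus strand), in GRCm39 and written 5′ to 3′ on the strand of the gene, with the AP-1 match in capitals.
Ereg: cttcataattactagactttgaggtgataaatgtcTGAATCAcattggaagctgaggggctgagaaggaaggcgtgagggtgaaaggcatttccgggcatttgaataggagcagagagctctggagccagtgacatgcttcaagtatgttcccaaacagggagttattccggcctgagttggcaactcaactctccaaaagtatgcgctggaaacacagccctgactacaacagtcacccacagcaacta
Srrm3: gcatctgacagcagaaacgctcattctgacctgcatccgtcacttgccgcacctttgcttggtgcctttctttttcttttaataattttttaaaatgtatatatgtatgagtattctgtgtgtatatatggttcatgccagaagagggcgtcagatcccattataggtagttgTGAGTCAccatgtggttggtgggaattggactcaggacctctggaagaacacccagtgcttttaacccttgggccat
Tex19.1: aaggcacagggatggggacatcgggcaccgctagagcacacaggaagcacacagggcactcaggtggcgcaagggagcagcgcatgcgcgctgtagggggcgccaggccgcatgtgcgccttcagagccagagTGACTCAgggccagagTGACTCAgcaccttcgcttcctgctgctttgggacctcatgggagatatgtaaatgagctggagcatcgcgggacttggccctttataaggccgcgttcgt
Crebl2: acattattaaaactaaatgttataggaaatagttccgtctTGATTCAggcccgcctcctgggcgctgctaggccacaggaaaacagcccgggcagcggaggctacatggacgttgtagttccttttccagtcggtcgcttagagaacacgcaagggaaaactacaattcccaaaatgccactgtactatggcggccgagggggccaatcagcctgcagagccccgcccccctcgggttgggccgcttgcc

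The match begins 215 bases before the start in Ereg, 77 in Srrm3 and 210 in Crebl2, and Tex19.1 has 2 matches, at 117 and 101 bases. The late genes Dnah5, Tmprss11f, Aloxe3, Il13ra2 and Serpinb7 also hold one. The log2FC at EPS 3h in Tug1 KD of these 9 genes ran from 0.88 for Serpinb7 to 4.90 for Srrm3.

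The TATA box is shown for Slco2a1, second in the ranking (chr9:102884951-102885200, plus strand), and for Myh11 (chr16:14109237-14109486, minus strand), with the match in capitals.
Slco2a1: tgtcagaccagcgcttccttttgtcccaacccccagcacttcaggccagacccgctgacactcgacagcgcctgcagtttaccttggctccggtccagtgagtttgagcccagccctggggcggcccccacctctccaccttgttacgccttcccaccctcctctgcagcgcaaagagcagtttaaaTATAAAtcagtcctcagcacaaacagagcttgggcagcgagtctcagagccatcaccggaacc
Myh11: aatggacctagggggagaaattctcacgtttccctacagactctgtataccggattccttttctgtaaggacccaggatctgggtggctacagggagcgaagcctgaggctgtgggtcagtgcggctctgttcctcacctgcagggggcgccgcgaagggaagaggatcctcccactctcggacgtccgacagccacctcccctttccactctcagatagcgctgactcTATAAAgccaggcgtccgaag

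It begins 63 bases before the annotated start in Slco2a1 and 21 bases before it in Myh11. The other late genes with a match were Spink5, Tex19.1, Oacyl, Glipr1, Enox1, Diras1, Adhfe1, P2ry10b, Il13ra2, Nop58 and Serpinb7.

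Some late genes lie close downstream of a gene that rose strongly, a feature looked at after the values were seen. For 40% of the late genes, a tested gene on the same strand began upstream and either ended within 20 kb of the gene or overlapped it. The share was 31.6% of protein-coding genes. Such an upstream gene rose at EPS 3h in Tug1 KD at the study's threshold for 8% against 2.89%. The pair with the largest upstream rise was Cpn1, which encodes the catalytic chain of carboxypeptidase N, and Dnmbp (chr19:43835260-43928671, minus strand in GRCm39), which begins 16.1 kb beyond it. Cpn1 had a mean of 0.161 CPM at Rest, 5.40 CPM at EPS 0h and 21.3 CPM at EPS 3h in Tug1 KD. The other pairs were Gm35021 and Gm19410, Gm7269 and Glipr1, Gm36328 and Crebl2, Zfp955a and Morc2b, Gm29596 and Nop58, Tex52 and Nrip2, and Gm12390 and Aptx, with log2FC of the upstream gene between 1.42 and 5.17. A tested gene on the other strand overlapped 23% of late genes against 31.7% of protein-coding genes. Whether transcription that runs on from the upstream gene adds to the counts of the late gene was not tested.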

How the data were processed

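Poly-A RNA of 36 C2C12 libraries was sequenced. Per the labels and the study's methods, the authors trimmed reads with fastp 0.14.1 after FastQC 0.11.7, aligned them with STAR 2.5 to GRCm39 and deposited whole-number counts per gene, with no normalization, and tested them with limma-voom. The counting mode and strand setting are not given in the sources used here. Group and replicate were read from library titles, and no library was left out. The per-library tables equal the joint table and were not used. Genes without a name (1492) held 0.0327% of counts.

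Counts of 13995 genes with at least 1 CPM in at least 12 libraries were analysed in R 4.3.3 with edgeR 4.0.16 (TMM, robust quasi-likelihood, 6 groups, Benjamini-Hochberg FDR over all 13995), and the standard error is log2FC over the root of F. Tests were EPS 3h and EPS 0h against Rest and EPS 3h against EPS 0h in Tug1 KD. Control contrasts and Tug1 KD against Control had no test, since Control libraries chose the genes. The script was tested on simulated data. The values of 1 member are not reported here. No pair of replicates agreed within counting error (chi-square per degree of freedom at least 3.98), and intervals and counting limits cover counting error only.

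The members, gene lists and tests were chosen with earlier results of these data known, and the role groups after the values were seen. Named genes were the first 10 in the ranking, the 10 most abundant at EPS 3h in Control, the 5 largest and 5 smallest responses at EPS 3h in Tug1 KD, the 5 largest differences each way between Tug1 KD and Control at Rest and at EPS 3h among genes of at least 5 CPM, members of the lists, the genes at the edge of the ranking, and Tug1. Crebl2, Il13ra2, F2rl1, Myh11, Tdrd9, Gtsf1, Cacna1a, Kcnq1, Mov10l1 and Ereg were added after their values were seen. Same-numbered libraries were taken as pairs where every correlation of their deviations was over 0.1, which held between Rest and EPS 0h (0.165 to 0.427) and between EPS 0h and EPS 3h (0.174 to 0.79) but not between Rest and EPS 3h (0.0724 to 0.44). Alternatives were DESeq2 1.42.0, limma-voom (limma 3.58.1), other scalings and filters, a replicate block, single sets of replicates, leaving out each replicate, and other settings of the rule. Gene structure and promoters come from GENCODE annotation of GRCm39, which gave 12575 protein-coding genes.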

Additional observations from a re-analysis of the deposited data

Results flagged for a closer look

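A single library stood apart from the other 5 of its group in 10 of 174 groups of values examined for the genes given in full, a gap that chance gives in about 1 in 20 groups. The values are TMM-scaled CPM. The highest library was replicate 1 for Tspear at Rest in Tug1 KD (0.0515), for Hfm1 in the same group (0.0515, 1 count in each case), for Spink5 at Rest in Control (2.87), and for Ppp2r2c at Rest (0.731) and at EPS 3h (11.2) in Control. Jarid2 was likewise highest in replicate 1 of EPS 3h Control (51.7), and Tspear in replicate 4 of EPS 0h Tug1 KD (0.156). The lowest library was replicate 2 for Ppp2r2c at EPS 0h in Control (0), replicate 5 for Epas1 at EPS 0h in Tug1 KD (0.431) and replicate 5 for Mov10l1 at Rest in Tug1 KD (1.17).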

How the results depend on the processing

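Of 480 values, those of the 48 late genes chosen for naming under 10 alternatives, 478 kept their direction and their call at EPS 3h against Rest in Tug1 KD. In replicates 4 to 6 alone Mov10l1 (0.75, FDR = 0.0660) and Gtsf1 (0.58, FDR = 0.0975) no longer passed. The number of late genes that rose at EPS 0h in Tug1 KD, 34, was the result that moved most. It was 22 on library size only, 17 without a filter on low counts, 11 in replicates 4 to 6 alone, and 17 of the genes chosen with a filter on Control libraries alone (fitted without a filter, an alternative added after seeing the data). Leaving out each replicate gave 20 to 31, and the cause was not tested. The choice of genes itself shared 59 of 100 with the main one for a window of 0.2 and 55 when made on replicates 4 to 6, and 80 to 88 when a replicate was left out.

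With the replicate number as a block, 44 late genes rose at EPS 0h, 96 between EPS 0h and EPS 3h and 100 at EPS 3h against Rest, and the block ended 1 call, that of Celf5 at EPS 0h. At EPS 3h, 100 rose with every replicate left out in turn, and 85 to 92 rose against EPS 0h. With 3 counts at about 0.154 CPM, Rest levels of the lowest genes were limited by depth.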
